A study of Mus musculus with 4 samples.

Results

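The genes described here are 10 genes of the endoplasmic reticulum (ER) stress response, namely Hspa5, Ddit3, Atf3, Atf4, Xbp1, Herpud1, Dnajb9, Trib3, Asns and Sdf2l1. They were found by gene name among the non-control probes of the arrays, which gave 10 of 37074 gene names and 19 of 56605 probes. The data are 4 single-colour microarrays of mouse liver RNA, all from C57BL/6 wild-type mice labelled as 6 weeks old. Aristolochic acid type I (AAI), a plant nitro compound that injures the kidney, was given intraperitoneally at 5 mg/kg/day to females and at 2 mg/kg/day to males, on 5 days a week for 3 weeks. Corn oil-treated females and corn oil-treated males were the vehicle controls. RNA of 5 mice was pooled for each array and each group had 1 array, so there is no replicate error and no test, and sex and AAI dose cannot be told apart.

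When unfolded proteins gather in the ER, 3 sensors in its membrane set off the unfolded protein response. PERK phosphorylates a translation factor, which lowers protein synthesis but favours translation of ATF4, IRE1 splices the mRNA of XBP1, and ATF6 is cut to release a transcription factor. ATF4 is also raised by amino acid shortage and other stresses through related kinases, a route called the integrated stress response. The targets include ER chaperones, factors that send misfolded proteins to the proteasome, and genes of amino acid supply and cell death. Hepatocytes secrete most plasma proteins and hold an extensive ER, and the mRNA levels measured here do not show phosphorylation, splicing or translation.

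The promoters of Hspa5, Herpud1, Atf3, Asns and Trib3 hold matches to known response elements, and those of the other members hold none in the bases searched. Those with a match are shown because these factors are known to act through such elements. Whether they act at these positions was not tested. The 300 bases around each gene's start (250 before, 50 after) were taken from RefSeq (build GRCm38.p6), and all 10 members were found there by name. Both strands were searched for the ER stress response element (ERSE, CCAAT and CCACG with 9 bases between), ERSE-II (ATTGG and CCACG with 1 base between), the unfolded protein response element (UPRE, TGACGTGG) and the CARE element bound by ATF4 and CHOP dimers with C/EBP proteins (TGATGNAA), where N is any base. ERSE was found in 0.119% of 32851 promoters and in the Hspa5 promoter, at -65 to -47 from the start. ERSE-II was found in 0.0365% of promoters and in the Herpud1 promoter, at -52 to -42. CARE was found in 3.97% of promoters and in those of Herpud1 (-112 to -105), Atf3 (-110 to -103), Asns (-23 to -16) and Trib3 (15 to 22 after the start). UPRE was found in 0.676% of promoters and in 0 of the 10 member promoters. The 3 longer stretches end at the base before the start, the other two are short windows around the match, and capitals mark the matched letters. A match is a description of the letters and was not tied to the array values.
Hspa5 promoter (chr2:34771890-34772089, plus strand): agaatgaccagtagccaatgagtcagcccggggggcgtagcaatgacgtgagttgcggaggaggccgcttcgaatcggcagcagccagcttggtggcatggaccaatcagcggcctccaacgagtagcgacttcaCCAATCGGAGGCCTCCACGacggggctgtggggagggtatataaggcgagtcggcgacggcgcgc
Herpud1 promoter (chr8:94386229-94386428, plus strand): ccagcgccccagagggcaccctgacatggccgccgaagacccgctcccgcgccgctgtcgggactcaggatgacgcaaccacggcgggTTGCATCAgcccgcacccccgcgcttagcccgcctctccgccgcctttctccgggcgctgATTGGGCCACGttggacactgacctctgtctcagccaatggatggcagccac
Asns promoter (chr6:7693210-7693409, minus strand): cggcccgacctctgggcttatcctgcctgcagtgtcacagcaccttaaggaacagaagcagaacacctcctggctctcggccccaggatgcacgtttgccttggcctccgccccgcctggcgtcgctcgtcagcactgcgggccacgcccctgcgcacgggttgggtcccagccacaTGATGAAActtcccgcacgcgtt
Atf3 promoter (chr1:191183425-191183454, minus strand): ccttctcgcacTTGCATCAccaagtccgcg
Trib3 start region (chr2:152344028-152344057, minus strand): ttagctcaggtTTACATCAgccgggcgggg

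Each probe is an oligonucleotide of 60 bases printed on the array. Of the 19 probes, 3 cover more than 60 bases of the genome (build mm9 in the array files) and so cross exon junctions, which means that they read spliced RNA. These are shown because each reads a gene whose values differed between groups. The Ddit3 probe is the brightest of its gene, while those of Hspa5 and Asns are read beside a brighter probe.
Ddit3 probe (chr10:126732518-126732821, plus strand): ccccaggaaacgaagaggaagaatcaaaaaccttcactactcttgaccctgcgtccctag
Hspa5 probe (chr2:34630699-34631075, plus strand): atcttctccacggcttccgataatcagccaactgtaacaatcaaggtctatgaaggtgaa
Asns probe (chr6:7626110-7626255, minus strand): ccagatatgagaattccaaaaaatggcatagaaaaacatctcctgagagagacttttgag

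Values are log2 of the processed intensity, normalized over the arrays so that all have 1 distribution. A gene is read from its brightest probe, other probes are given beside it, and levels are compared only within a probe. The log2 ratio of a gene is its AAI value less the corn oil value of that sex, and a ratio of 1 or more in size is a 2-fold difference. The error given with a ratio is the scanner software's own estimate for the spots, which covers the array reading and not the mice. For most member probes it was close to 0.10 of the signal on every array. It thus hardly varied between genes and is not a spread measured between repeats. Repeated spots of 1 probe differed by a median SD of 0.05 to 0.08 on the 4 arrays. The ratios of probes for 1 gene differed by a median SD of 0.25 (females) and 0.24 (males).

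The liver label was checked with hepatocyte markers, and 9 of 9 on the array were well above background in every group, with a summed intensity between 2338110 and 2523880. The sums were taken after the normalization, which sets the brightest values equal on all arrays. Their closeness therefore does not measure the hepatocyte share of the RNA. Of the 9 markers, Apob encodes the main protein of very low density lipoprotein. It read 13.57 (corn oil) and 14.04 (AAI) in females, and 14.98 (corn oil) and 14.04 (AAI) in males, so corn oil-treated males were the highest. Its ratio was -0.94 in males and -1.41 between the corn oil-treated groups (females less males), the lowest of the 9 in both. In males 3 of the 9 were above 0 and 6 below, with Fgb the highest at 0.57. Between the corn oil-treated groups 4 were above 0 and 4 below, with Fgb the highest at 0.28. Markers of other tissues were not equal between groups. Skeletal muscle markers were at least 2-fold higher after AAI in both sexes (10 of 10), with summed intensities of 1447 (corn oil) and 42310 (AAI) in females, and 5391 (corn oil) and 331093 (AAI) in males. Fat markers were at least 2-fold higher for 3 of 7 measured genes in females and 6 of 8 in males, and 6 of 8 adrenal cortex markers were higher in males and 1 was lower, with sums of 5641 (corn oil) and 50570 (AAI). Chromaffin cell markers were higher for 4 of 8 genes in males and lower for 1 of 8 in females, pancreatic acinar markers for 0 of 10 in either sex, and 1 of 8 plasma cell and B cell markers was lower in males. Macrophage markers were at least 2-fold lower for 5 of 8 genes in females and 2 of 8 in males. The part of these tissues in the results below was not tested. In such bulk RNA, fewer cells of a type and less RNA per cell cannot be told apart.

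**Figure D1:**
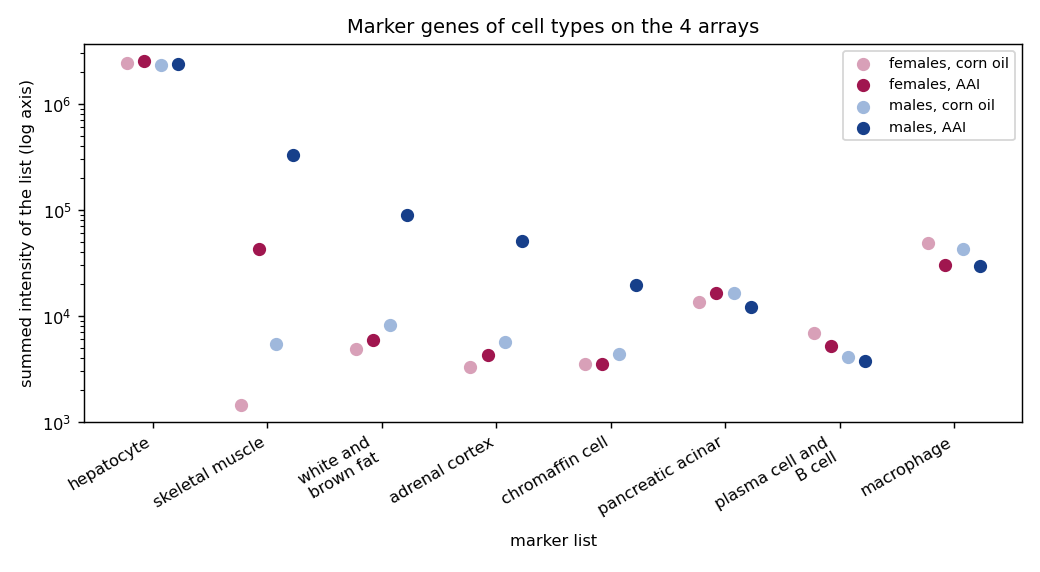
Summed intensity (log axis) of 8 lists of cell type marker genes on each array, with 1 point per array. Hepatocyte sums lie together between 2338110 and 2523880, while the skeletal muscle sum is 1447 (corn oil) and 42310 (AAI) in females and 5391 and 331093 in males. Sums were taken after normalization, which sets the brightest values equal on all arrays, so close hepatocyte sums do not measure the hepatocyte share.

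In females, 0 of the 10 members differed 2-fold between AAI-treated and corn oil-treated livers, where 4.41% of 31636 genes tested did so in either direction (1.34% higher, 3.07% lower). In males 1 of 10 did, Hspa5, which was lower, where 8.03% of 30489 genes did so (3.47% higher, 4.56% lower). The member medians were -0.09 in females and -0.12 in males, against 0.04 and 0.02 over all genes. That of females was above 0 under 3 of 5 other ways of processing. In females 4 members were above 0 and 6 below, and in males 5 were above and 5 below. The median size of the log2 ratio, whatever its sign, was 0.38 in females and 0.37 in males for the members and 0.28 and 0.27 for all genes. The ratios ran from -0.80 for Atf3 to 0.92 for Asns in females, and from -1.05 for Hspa5 to 0.59 for Trib3 in males. The members lay on both sides of 0 in each sex.

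**Figure D2:**
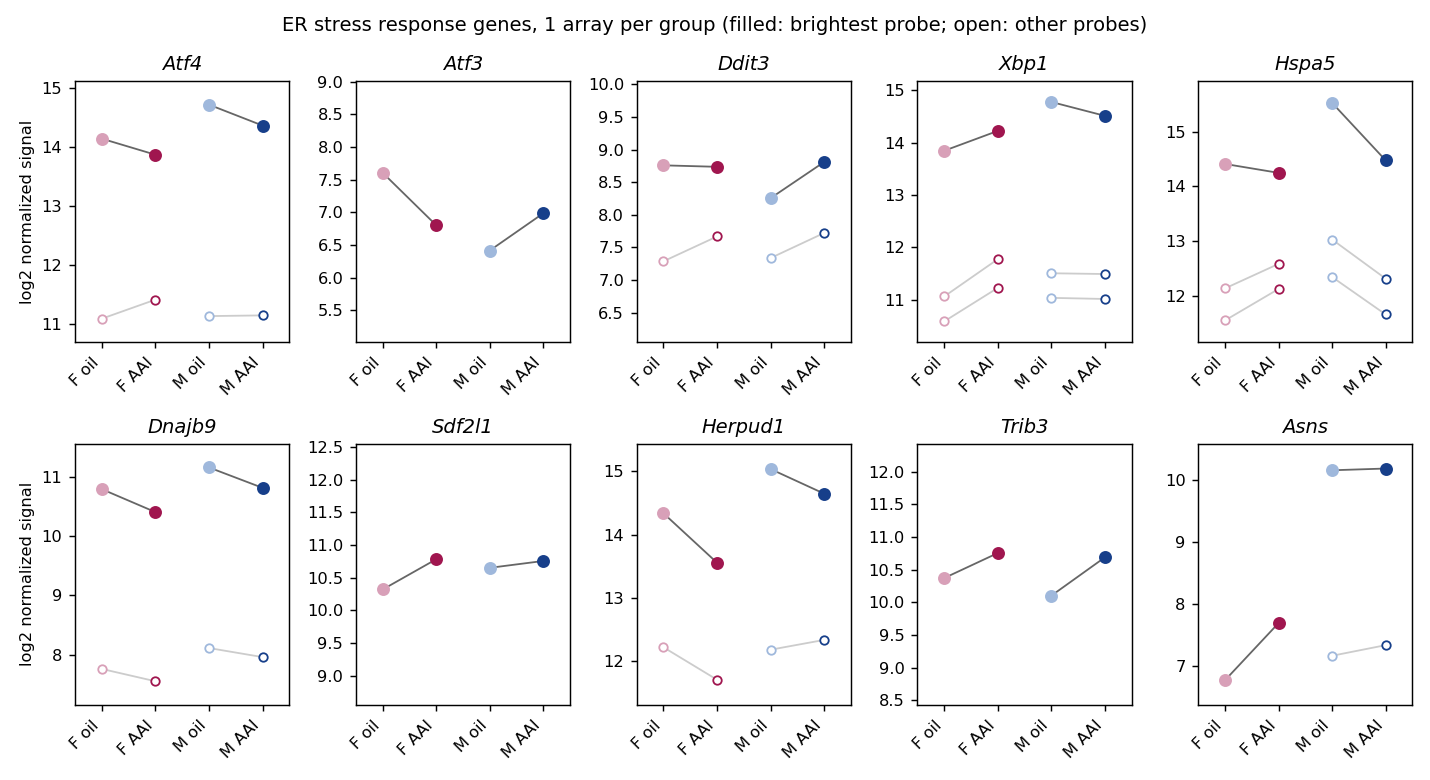
Log2 normalized signal of each member on the 4 arrays (F, females; M, males; oil, corn oil), with filled points for the brightest probe and open points for other probes; lines join the arrays of 1 sex, and a value marked as an outlier or not well above background is left out. Asns, Atf3 and Hspa5 differ at least 2-fold between corn oil-treated females and males, and Atf3 has opposite directions in the sexes. Each panel has its own axis, and probes are not comparable in height.

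Among the transcription factors, Atf4, the shared factor of the integrated stress response, had signals of 14.14 (corn oil) and 13.87 (AAI) in females, and 14.72 (corn oil) and 14.36 (AAI) in males. Its ratio was -0.27 ± 0.20 in females and -0.35 ± 0.20 in males, both near the error. The other Atf4 probe gave 0.32 in females and 0.01 in males, so its 2 probes disagreed in direction in females.

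Ddit3 encodes CHOP, the factor that ATF4 induces and that is tied to cell death under prolonged ER stress. The signals of its brightest probe, the junction probe printed above, were 8.76 (corn oil) and 8.74 (AAI) in females, and 8.25 (corn oil) and 8.81 (AAI) in males. The ratio was -0.02 ± 0.20 in females, within the error, and 0.55 ± 0.21 in males. A second probe, annotated to another transcript, gave 0.38 in both sexes. Both probes were thus above 0 in males, by less than 2-fold.

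Atf3, an early stress-induced repressor and activator downstream of ATF4, was read by 1 probe. This probe had processed intensities of 88 to 180, where the array medians were 110 to 129. Its signals were 7.60 (corn oil) and 6.80 (AAI) in females, and 6.41 (corn oil) and 6.98 (AAI) in males. The ratio was -0.80 ± 0.21 in females, 1.75-fold lower, and 0.57 ± 0.22 in males, 1.49-fold higher. The corn oil-treated female array was the highest of the 4 and the corn oil-treated male array the lowest, so the 2 AAI-treated arrays lay between the controls.

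Xbp1 encodes the factor that IRE1 activates by splicing, and it drives ER chaperone and secretory genes. Its 3 probes lie toward the 3′ end of the transcript and do not separate the spliced from the unspliced form. The brightest probe had 13.84 (corn oil) and 14.22 (AAI) in females, and 14.78 (corn oil) and 14.51 (AAI) in males. The ratio was 0.38 ± 0.20 in females and -0.27 ± 0.20 in males. The other probes gave 0.64 and 0.71 in females and -0.02 and -0.01 in males, so all 3 were higher in AAI-treated females and none was higher in AAI-treated males.

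Among the chaperones, Hspa5 encodes BiP, the main ER chaperone, which also holds the sensors inactive. The brightest probe had 14.41 (corn oil) and 14.24 (AAI) in females, and 15.52 (corn oil) and 14.47 (AAI) in males. On this probe the corn oil-treated male array stood above the others, which lay close together. On the junction probe AAI-treated females read 12.12 and corn oil-treated males 12.34, and on the remaining probe 12.58 and 13.03. The ratio of the brightest probe in males was -1.05 ± 0.20, a 2.07-fold lower level in AAI-treated males. The other probes gave -0.68 (the junction probe) and -0.72, so the direction was shared and 1 of 3 probes passed 2-fold. Under 5 other ways of processing the ratio lay between -1.04 and -0.82, and in 4 of the 5 it was below 2-fold. In females the brightest probe gave -0.16 ± 0.20 and the others 0.58 and 0.45, and no direction can be given. The software had multiplied the brightest probe by 1.33 in corn oil-treated females, and by 1.31 (corn oil) and 1.26 (AAI) in males, to correct a trend across the array. The array of AAI-treated females carries no such correction on any gene, so every ratio of AAI over corn oil in females shares this limit. On the background-subtracted signal, without the correction, the female ratio of the brightest Hspa5 probe was 0.22.

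Dnajb9 encodes ERdj4, a BiP co-chaperone and one of the classic targets of XBP1. Its signals were 10.79 (corn oil) and 10.41 (AAI) in females, and 11.16 (corn oil) and 10.81 (AAI) in males, with ratios of -0.39 ± 0.20 and -0.34 ± 0.20. Its other probe gave -0.21 and -0.15, so both probes were lower after AAI in both sexes, by less than 2-fold. Sdf2l1, a partner of BiP and ERdj proteins in folding and degradation, had 10.32 (corn oil) and 10.78 (AAI) in females, and 10.65 (corn oil) and 10.76 (AAI) in males. Its ratio was 0.46 ± 0.20 in females and 0.11 ± 0.20 in males, the latter within the error.

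Herpud1 encodes a membrane protein of ER-associated degradation, and its promoter carries the ERSE-II and CARE matches shown above. Its signals were 14.34 (corn oil) and 13.56 (AAI) in females, and 15.04 (corn oil) and 14.65 (AAI) in males. The ratio was -0.78 ± 0.20 in females, 1.72-fold lower, and the other probe gave -0.51. In males the probes disagreed, with -0.39 ± 0.20 and 0.15. Herpud1 was thus lower in AAI-treated females on both probes, as Hspa5 was lower in AAI-treated males on all 3.

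Of the ATF4 and CHOP target enzymes, Trib3 encodes a pseudokinase that binds and restrains ATF4 and AKT. Its signals were 10.37 (corn oil) and 10.76 (AAI) in females, and 10.10 (corn oil) and 10.69 (AAI) in males. The ratios were 0.38 ± 0.20 and 0.59 ± 0.20, both above 0 and below 2-fold, and the 2 AAI-treated arrays lay above the 2 controls. Trib3 has 1 probe.

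Asns encodes asparagine synthetase, which makes asparagine from aspartate and glutamine and is induced by ATF4 when amino acids are short. Its brightest probe had 6.77 (corn oil) and 7.69 (AAI) in females, and 10.16 (corn oil) and 10.19 (AAI) in males. The ratio was 0.92 ± 0.22 in females, 1.89-fold higher, and 0.03 ± 0.20 in males, within the error. Both female arrays lay far below both male arrays. The junction probe printed above read 7.17 (corn oil) and 7.34 (AAI) in males, a ratio of 0.17. It was not well above background in corn oil-treated females and was marked as an outlier in AAI-treated females, so the female difference rests on 1 probe. It was at 1.05, past 2-fold, on the background-subtracted signal.

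**Figure D3:**
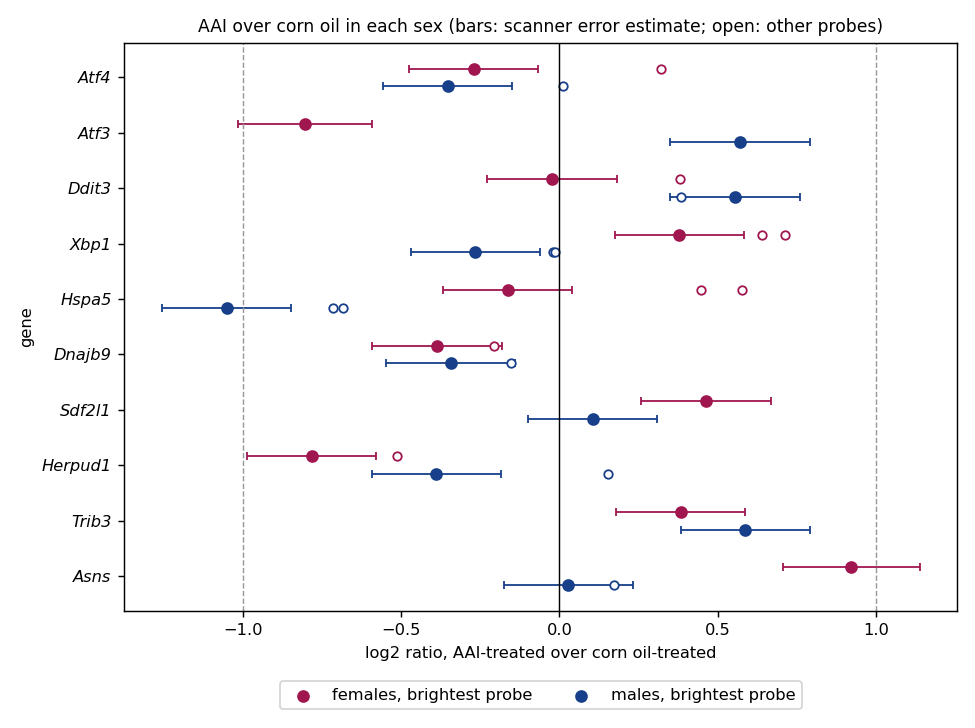
Log2 ratio, AAI over corn oil, for each member in females and males; filled points are the brightest probe with bars for the scanner software's error estimate, open points are other probes, and dashed lines mark 2-fold. Only the brightest Hspa5 probe in males passes a dashed line. The brightest probes of Atf3 and Xbp1 lie on opposite sides of 0 in the sexes, and the other Xbp1 probes lie near 0 in males.

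The corn oil-treated groups also differed between the sexes. Markers of other tissues were not equal between these 2 arrays. At least 2-fold lower in corn oil-treated females were 8 of 10 skeletal muscle, 4 of 8 fat, 6 of 8 adrenal cortex and 2 of 8 chromaffin cell markers, bounds included. None of these lists had a marker 2-fold higher, while 1 of 10 pancreatic acinar and 1 of 8 plasma cell and B cell markers were higher. The part of these tissues in the values below was not tested. Between corn oil-treated females and corn oil-treated males, 3 of 10 members differed 2-fold, 1 higher and 2 lower in females, where 5.65% of 30846 genes did so (1.84% higher, 3.81% lower). The member median was -0.47, against 0.02 over all genes, and 7 members were lower in females. Asns had the widest gap of the members, at -3.39 ± 0.21 (10.46-fold lower in females), and 0.144% of genes had as large a difference. After the normexp correction the gap was -2.60. The junction probe of Asns was at least 7.07-fold lower in females, a bound set by the dimmest signal well above background. The gap was 5.63-fold between the AAI-treated groups, which also differ in dose.

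Hspa5 was 2.17-fold lower in corn oil-treated females (-1.12 ± 0.20), with -0.79 and -0.89 from the other probes. Xbp1 had -0.93 on its brightest probe, with -0.45 and -0.44 from the others. Atf3 was 2.28-fold higher in corn oil-treated females (1.19 ± 0.22). When the arrays were scaled to their 75th percentile instead, Hspa5 was at -0.79, below 2-fold, and Atf3 was at 0.78 after another background correction (normexp). The corn oil-treated male array enters both this comparison and the AAI ratio of males, so the Hspa5 values of these 2 comparisons are not independent.

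The other genes of the pathway were taken in 9 lists, counted in the same way. Of the ER stress sensors and regulators 0 of 15 were at 2-fold in either sex, with medians of -0.09 in females and -0.21 in males. The gene farthest from 0 was Eif2ak4, which encodes the amino acid sensor kinase GCN2, at -0.56 in females (-0.70 to -0.19 from other probes), and Ern1, which encodes IRE1, at -0.89 in males. Ern1 went from 10.19 in corn oil-treated males to 9.30 in AAI-treated males, and from 9.79 to 9.42 in females. Its 3 other probes gave -0.36 to -0.15 in males, and -0.41 to 0.41 in females, where no direction was shared.

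The ER chaperones and folding enzymes lay mostly on opposite sides of 0 in the sexes, each against the control of its own sex. In females 0 of 23 were at 2-fold, but 19 of 23 were above 0 with a median of 0.19, where 54.0% of genes above background on all arrays were above 0. In males 1 of 23 was at 2-fold, where 8.03% of all genes were. There 19 of 23 were below 0 with a median of -0.35, where 51.6% of genes were above 0. P4hb, a protein disulfide isomerase, was the farthest in females, at 0.96, with 0.42 from its other probe. Creld2, an ER stress-induced folding factor, was 2.58-fold lower in AAI-treated males (-1.37), with 11.94 (corn oil) and 12.03 (AAI) in females, and 13.05 (corn oil) and 11.68 (AAI) in males. Creld2, read by 1 probe, was highest in corn oil-treated males, as was each Hspa5 probe.

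Between the corn oil-treated groups, 21 of the 23 chaperones were lower in females (median -0.32), where 52.9% of all genes were higher in females. Corn oil-treated females were the lowest of the 4 arrays for 11 of the 23, and for 5594 of 28196 genes. Each corn oil array enters both this comparison and the AAI ratios of its sex, so these counts are not independent. For 13 of the 23 chaperones, corn oil-treated males were the highest of the 4 arrays, where 27.5% of all genes were highest there. By the brightest probe, the same held for 5 of the 10 members, namely Hspa5, Dnajb9, Atf4, Xbp1 and Herpud1. Of these, only Hspa5 and Dnajb9 had it on every probe. The other Atf4 and Xbp1 probes were highest in AAI-treated females, and the other Herpud1 probe in AAI-treated males. Corn oil-treated males were also the highest, by the brightest probe, for 12 of 17 genes of ER-associated degradation. In that list 0 of 17 were at 2-fold in either sex, the medians were -0.01 in females and -0.23 in males, and the farthest were Derl3 at -0.83 in females and Edem3 at -0.66 in males (-0.28 from another probe), both factors that help remove misfolded proteins. The female median changed sign under 3 of 5 alternatives.

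The genes of ER translocation and export lay mostly above 0 in females, with 21 of 23 above 0, a median of 0.37 and 0 at 2-fold. Sec23b, a coat protein of vesicles leaving the ER, was the farthest at 0.73, with 0.62 from its other probe. In males the median was -0.10. There 1 of 23 was higher and 1 lower, where 3.47% of all genes were higher and 4.56% lower. The higher gene was Kdelr3, a retrieval receptor for ER proteins, at 1.02. The lower gene was Srprb, a subunit of the signal recognition particle receptor, at -1.06 on its brightest probe and 0.07 on another. Both fell short of 2-fold under another setting, Kdelr3 at 0.38 and Srprb at -0.88. Under the 5 other ways of processing, the female medians of the chaperone list (0.15 to 0.32) and the translocation list (0.30 to 0.38) stayed above 0, and the male medians (-0.41 to -0.26, and -0.15 to -0.04) stayed below 0. Between the corn oil-treated groups, 19 of the 23 translocation genes were lower in females and 4 higher, with a median of -0.40. Corn oil-treated females were the lowest of the 4 arrays for 14 of these 23. The same corn oil arrays enter the AAI ratios, so these values are not independent.

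Of the ATF4 targets of amino acid supply, 0 of 14 were at 2-fold in females, with a median of -0.10 that turned to 0.05 after the normexp background correction. Aldh18a1, an enzyme of proline synthesis, was the farthest at -0.79. In males 2 of 13 measured genes were higher, where 3.47% of all genes were, and the median was 0.21. The 2 were the arginine transporter gene Slc7a1 at 1.19 and Phgdh, the first enzyme of serine synthesis, at 1.04. The lowest values of these genes under other processing were 0.72 and 0.71, below 2-fold. The aminoacyl-tRNA synthetases, which are also ATF4 targets, had 0 of 12 at 2-fold in either sex. In females their median was 0.16 and 10 of 12 were above 0, where 54.0% of all genes were. In males their median was -0.33 and 11 of 12 were below 0, where 51.6% of all genes were above 0. The farthest were Mars at 0.60 in females and Tars at -0.61 in males. Between the corn oil-treated groups 10 of 12 were lower in females and 2 higher, with a median of -0.25.

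The ATF4 and CHOP stress targets held the largest ratios, in different genes in the sexes. In females 3 of 16 measured genes were lower and 0 higher, where 3.07% of all genes were lower and 1.34% higher. Jdp2, a repressor of AP-1, went from 9.29 to 7.54, a 3.38-fold lower level. Ddit4, which restrains mTORC1 under stress, went from 12.22 to 10.54, 3.19-fold lower. Cebpb, a partner of CHOP and ATF4, was 2.10-fold lower. The ratios of the same genes in males were -0.18, 0.28 and -0.18.

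In males 2 of 16 were higher and 0 lower, where 3.47% of all genes were higher and 4.56% lower. Vldlr, a lipoprotein receptor gene, had 9.23 (corn oil) and 9.62 (AAI) in females, and 6.91 (corn oil) and 9.90 (AAI) in males, so its ratio in males was 2.98 (7.91-fold), with 1.93 from another probe. Muscle and fat are known for high Vldlr, and their markers were higher on the same array, as given above; their part in this value was not tested. Nupr1, a stress-induced chromatin protein, was 2.15-fold higher, with a log2 ratio of 0.31 from another probe. The list medians were 0.01 in females and 0.17 in males, and that in females changed sign under 3 of 5 alternatives.

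Atf3 is also an immediate-early gene, and 13 other genes of that class were read beside it. In females 1 was higher, Myc, at 1.04 (0.51 from another probe), where 1.34% of all genes were higher. The list median in females was -0.03, which changed sign under 1 of 5 alternatives. In males 3 were higher, Fos at 1.77, Myc at 1.49 (0.38 from another probe) and Ier3 at 1.28, where 3.47% of all genes were higher, and the median was 0.39 with 11 of 13 above 0. Under another setting Ier3 in males and Myc in females were at 0.77, short of 2-fold. All 13 were higher in corn oil-treated females than in corn oil-treated males, with a median of 0.42, the direction in which Atf3 differed, where 52.9% of all genes were above 0. The corn oil-treated male array was the lowest of the 4 for 9 of the 13, and for 9226 of 28196 genes above background on all arrays. This array enters both this comparison and the male AAI ratios, so these counts are not independent. Of the 5 transcripts known to be cut by IRE1 under ER stress, 0 were at 2-fold in either sex, with medians of 0.04 in females, which changed sign under 4 of 5 alternatives, and 0.39 in males. The farthest were Scara3, a scavenger receptor gene, at 0.10 in females and Col6a1, a collagen gene, at 0.74 in males.

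**Figure D4:**
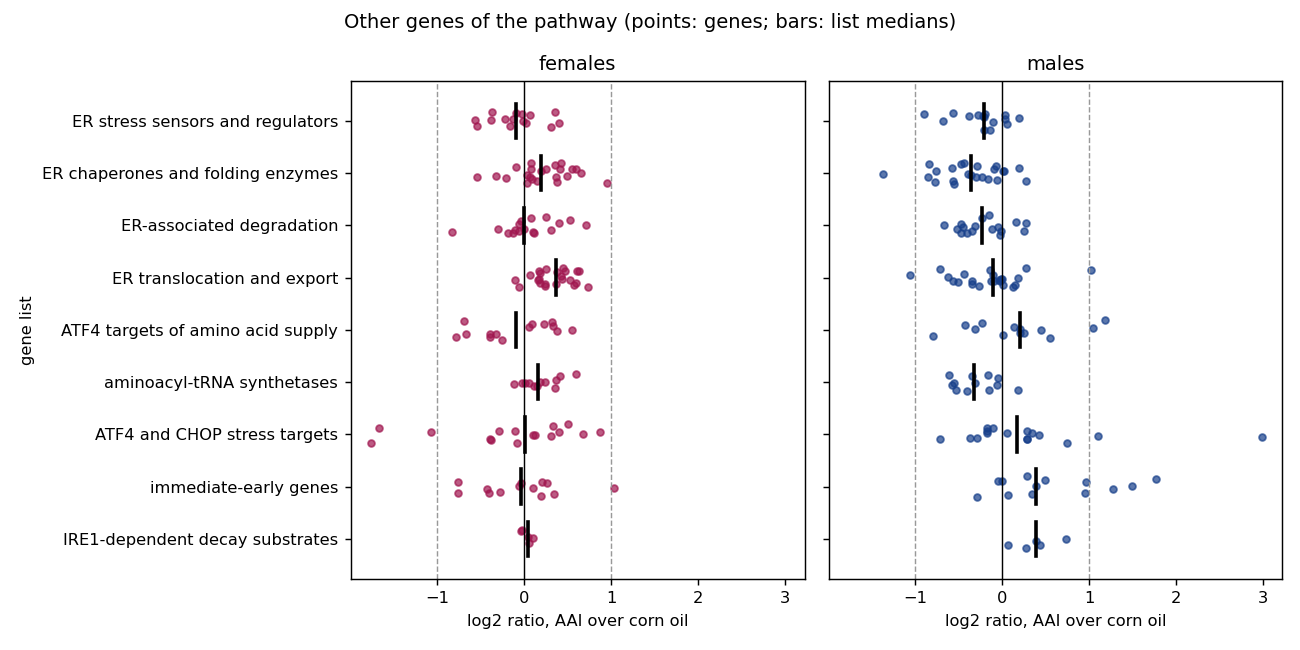
Log2 ratio, AAI over corn oil, for the genes of 9 pathway lists in females (left) and males (right); points are genes, black bars are list medians and dashed lines mark 2-fold. Chaperones, translocation genes and tRNA synthetases lie mostly above 0 in females and below 0 in males, and the points past 2-fold are mostly in the ATF4 and CHOP and immediate-early lists. Chaperones, translocation genes and tRNA synthetases were also mostly lower in corn oil-treated females than in corn oil-treated males.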

How the data were processed

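Liver RNA of 4 groups was measured on Agilent single-colour arrays, with 1 pool of 5 mice per array. The software of the scanner was Feature Extraction 10.5.1.1. The authors deposited scanner files with each spot's intensity, its background-subtracted and trend-corrected (processed) form, an error estimate and quality marks, and for the series a table of raw and quantile-normalized intensity. The processed intensity was used here. On the array of AAI-treated females it equalled the background-subtracted signal (within 1%) at 100% of spots well above background. On the other arrays it did so at 7.38% to 14.7% of them. Ratios that use the array of AAI-treated females thus set uncorrected against trend-corrected signals, which the background-subtracted alternative does not. Control spots, outlier spots and spots whose processed value had been replaced by the background value (within 1% while the subtracted signal was over 5 times it; 0 to 77 per array, 0 of the member probes) were left out, the log2 values of a probe's spots were averaged, and 56393 probes were quantile normalized (limma 3.58.1, R 4.3.3). Of 59305 spots per array, 75.8% to 82.3% were well above background and 0 were saturated.

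A gene was counted at 2-fold or more if 1 or both arrays of the comparison had its probe well above background. Where 1 array did not, a lower bound took the place of the ratio. The calculation of ratios and bounds was checked on simulated data. The noise there was smaller than the spread between probes seen here, so the check does not show how reliable the 2-fold counts are. With 1 array per group no test was made, and precision is limited by the number of arrays.

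Groups came from the sample labels. The members and lists were chosen with earlier results of these data known. All members are named with every probe. From each list, the 2 highest and 2 lowest genes past 2-fold in each sex are named, otherwise the gene farthest from 0; Cebpb and Ier3 were added after their values were seen. Alternatives were scaling to the 75th percentile, normexp correction (offset 50), the background-subtracted signal, the authors' normalized intensity, the mean of a gene's probes, other filters on dim probes, and thresholds of 1.5-fold and 3-fold. Those for the lists and for corn oil-treated groups were added after the data were seen.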

Additional observations from a re-analysis of the deposited data

Results flagged for a closer look

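Atf3 and Xbp1 had ratios of opposite direction in the sexes. Atf3 was at -0.80 in females and 0.57 in males, and Xbp1 was at 0.38 in females and -0.27 in males. These are values of the brightest probe, and the other Xbp1 probes gave -0.02 and -0.01 in males, within the error. With 1 array per group, the difference between the sexes was not tested, and the dose of AAI differed as well. Both genes kept these directions under the 5 other ways of processing, with Atf3 between -0.93 and -0.61 in females and between 0.32 and 0.64 in males, and Xbp1 between 0.32 and 0.58 in females and between -0.26 and -0.10 in males.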

How the results depend on the processing

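No paired analysis was possible because each group has 1 array. Of 50 member ratios under alternatives in each sex, 46 in females and 48 in males stayed within the spread between probes. The count of members at 2-fold in females was 1 (Asns, higher) on the background-subtracted signal and 3 at 1.5-fold, and the count in males was 0 with scaling to the 75th percentile, normexp, the background-subtracted signal, the mean of probes or a 3-fold threshold, and 2 at 1.5-fold. The member median in females was 0.23 with the mean of probes, 0.11 with normexp and 0.12 on the background-subtracted signal, so its sign changed under 3 of 5 alternatives. Atf4 in females turned to 0.03 (0.0253) with the mean of probes, which includes its discordant probe. Hspa5 in females, called in no direction, was above 0 under 3 of 5 alternatives, and Ddit3 likewise. Between corn oil-treated groups the count was 2 or 3 under every alternative run, without Hspa5 under scaling to the 75th percentile and the mean of probes, and without Atf3 under normexp. The causes were not tested. Signal over background limits the junction probe of Asns, and the single array per group limits every ratio.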
